A study of Mus musculus with 30 samples.

Results

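The microRNAs of the Dlk1-Dio3 imprinted domain were examined in cortical small RNA libraries of 5xFAD mice (AD) and wild-type mice (WT). Their genes lie on mouse chromosome 12, between the protein-coding genes Dlk1 and Dio3. All microRNA transcripts that GENCODE release M21 places between positions 109540000 and 109760000 of build GRCm38 were taken as members, whatever their level, and this gave 66 hairpins of 2202 in the mouse annotation. RNA of 15 to 50 nt was cut from a gel of cortex RNA from mice of 6 months and sequenced as it was (traditional-seq), in 7 libraries from WT and 7 from AD mice. The same size class was also treated with the demethylase AlkB and with T4 PNK, which repairs RNA ends for adapter ligation, and then sequenced (PANDORA-seq), in 8 libraries from each genotype. The study compared the genotypes within each protocol to find small RNAs that change in Alzheimer's disease, and the protocols to find RNAs whose modifications keep them out of ordinary libraries. 5xFAD mice carry human transgenes, mutant APP among them, driven by the neuronal Thy1 promoter, which makes them a model of amyloid deposition. They were hemizygous on a C57BL/6J background, their WT controls were littermates without the transgenes, and both sexes were used. The labels do not say whether a PANDORA-seq library and a traditional-seq library came from the same mouse. The names of 14 pairs of files, 1 of each protocol, share a code whose meaning is not given, and in WT the same-numbered libraries of both protocols carry the same code. The tests treat all libraries as separate, and the p-values below measure the spread between these libraries.

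The Dlk1-Dio3 domain is imprinted: Dlk1, Rtl1 and Dio3 are expressed from the paternal chromosome, and the long noncoding RNAs Meg3, Rian and Mirg from the maternal one. The microRNAs are processed from the maternal noncoding transcripts, and those opposite Rtl1, Mir127 among them, are fully complementary to the Rtl1 mRNA and can direct its cleavage. In the adult the cluster is expressed mainly in the brain. Mir134, one of its members, is known to limit the growth of dendritic spines, and transcription of the large downstream group is raised by the activity-dependent factor MEF2. A hairpin gives a 5p and a 3p arm, and target choice rests mainly on the seed, bases 2 to 8 of the mature strand.

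The mature sequences on which the results below turn are given first, from RefSeq on build GRCm38.p6, from 5′ to 3′ with the seed in capitals. The first set holds strands of members that took a larger part of hairpin reads in PANDORA-seq, or kept their level. Each is the more abundant strand of its hairpin except miR-485-3p, which held 27.2% of Mir485 arm reads in traditional-seq and 38.4% in PANDORA-seq.
miR-127-3p: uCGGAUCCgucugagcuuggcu
miR-433-3p: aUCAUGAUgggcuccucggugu
miR-485-3p: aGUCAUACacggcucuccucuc
miR-370-3p: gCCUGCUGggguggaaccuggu
miR-541-5p: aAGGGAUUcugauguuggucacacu
miR-543-3p: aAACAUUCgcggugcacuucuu
The second set holds strands that took a smaller part there, and both strands of Mir382 and Mir434, whose major arm by pooled reads differed between the protocols.
miR-136-5p: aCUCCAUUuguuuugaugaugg
miR-379-5p: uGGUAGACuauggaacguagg
miR-381-3p: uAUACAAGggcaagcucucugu
miR-382-5p: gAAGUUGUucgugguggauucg
miR-382-3p: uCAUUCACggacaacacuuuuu
miR-434-5p: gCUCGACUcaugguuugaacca
miR-434-3p: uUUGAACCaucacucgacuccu
The third set holds strands in which a seed base was often read as another base, together with miR-300-3p, which resembles miR-381-3p.
miR-376b-3p: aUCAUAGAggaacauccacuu
miR-376b-5p: gUGGAUAUuccuucuaugguua
miR-376a-5p: gGUAGAUUcuccuucuaugagu
miR-411-5p: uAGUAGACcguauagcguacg
miR-300-3p: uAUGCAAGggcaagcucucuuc
Of the 66 members, 60 had a RefSeq entry, and these held 112 mature sequences. By their RefSeq starts, 9 pairs of different mature sequences within the cluster shared a seed, such as miR-376b-5p and miR-376c-5p with UGGAUAU, and Mir3070a and Mir3070b give the same miR-3070-5p.

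Reads whose whole sequence matched a hairpin exactly and in the sense direction were counted, and levels are given as CPM, counts per 1000000 reads that matched any hairpin. Traditional-seq libraries held 9370669 to 17053412 reads, of which 35.9% to 50.3% matched a hairpin. PANDORA-seq libraries held 54926347 to 105876141 reads, of which 1.51% to 5.54% did, so a CPM in one protocol describes a much smaller part of the library than in the other. All 9 neuronal marker hairpins, such as those of miR-124 and miR-9, were detected. Their summed counts came to 42.1% to 84.7% of hairpin reads in WT and 41.9% to 72.4% in AD traditional-seq libraries. In the PANDORA-seq libraries they came to 27.7% to 48.4% in WT and 17.5% to 42.5% in AD. A read that matched several marker hairpins was counted in each but once in the total. These sums, and those of the markers below, can thus exceed the share of reads that the markers hold. The 3 detected erythroid hairpins, of 4 listed, took 0.0273% to 0.0777% in traditional-seq and 0.312% to 2.96% in PANDORA-seq, and the 4 detected vascular hairpins, of 5 listed, took 1.40% to 3.09% and 0.114% to 1.45%. The part of these other cell types in the results was not tested. Several libraries stood apart. In AD PANDORA-seq replicate 1 the marker sums were 17.5% for neurons and 2.96% for erythroid cells. In 4.46% of its reads of other hairpins the last base was a mismatched G. That share was 1.54% in AD PANDORA-seq replicate 3 and at most 0.264% in the other PANDORA-seq libraries. Markers of olfactory, choroid or other epithelium took 3.796% in WT traditional-seq replicate 3 and 3.52% in WT PANDORA-seq replicate 2, where the medians of the 4 groups were 0.123% to 0.541%, and muscle markers took 4.37% in AD traditional-seq replicate 4. Oligodendrocyte, microglia and leukocyte, and liver markers stayed below 1% in all libraries. The cluster shares, the levels of Mir127 and the correlations are also given without AD PANDORA-seq replicate 1, and the effect of leaving out each library on the counts of calls is given at the end.

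The weight of the cluster among hairpin reads differed between the protocols. In the WT traditional-seq libraries 3.94% to 7.13% with a median of 5.16% of hairpin reads came from its members, with a mean of 5.47% ± 0.995 (SD, n = 7). In the AD traditional-seq libraries the range was 4.86% to 6.16% with a median of 5.09%, and the mean 5.19% ± 0.443 (SD, n = 7). The genotypes thus overlapped, with the AD range lying inside the WT range. In PANDORA-seq the share was 14.4% ± 2.75 (SD, n = 8) in WT, from 10.8% to 18.9% with a median of 13.7%, and 13.2% ± 5.28 (SD, n = 8) in AD, from 3.77% to 18.6% with a median of 14.3%. Each WT PANDORA-seq library lay above each traditional-seq library, while the lowest AD PANDORA-seq library, replicate 1, lay below all of them. Without it the AD share was 14.5% ± 3.95 (SD, n = 7), from 7.61% to 18.6%. As a share of all reads of a library the order of the protocols turned, with means of 2.31% in WT and 2.17% in AD traditional-seq and 0.367% and 0.401% in PANDORA-seq. With reads that matched 1 hairpin only, the cluster share of hairpin reads was 8.17% and 7.70% in traditional-seq and 29.2% and 26.6% in PANDORA-seq. In bulk tissue, fewer cells of a type and less RNA per cell cannot be told apart.

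One hairpin made up most of that difference. Mir127, at chr12:109592846-109592915, plus strand, inside Rtl1 on the opposite strand, supplied 23.3% ± 5.33 (SD, n = 7) of cluster reads in WT and 25.2% ± 2.95 (SD, n = 7) in AD traditional-seq libraries, but 65.3% ± 3.20 (SD, n = 8) and 65.8% ± 3.56 (SD, n = 8) in PANDORA-seq. With Mir127 left out, the other members took 4.17% ± 0.648 (SD, n = 7) and 3.88% ± 0.386 (SD, n = 7) of hairpin reads in traditional-seq, and 4.97% ± 0.921 (SD, n = 8) and 4.402% ± 1.64 (SD, n = 8) in PANDORA-seq, where the AD value was 4.82% ± 1.23 (SD, n = 7) without replicate 1. The ranges of the protocols then overlapped in both genotypes. The size of the difference depended on exact matching, which leaves out a far larger part of miR-127-3p reads in traditional-seq than in PANDORA-seq, as described below with the 3′ ends. With 1 mismatch allowed, Mir127 supplied 48.2% ± 10.6 (SD, n = 7) of cluster reads in WT and 48.9% ± 7.98 (SD, n = 7) in AD traditional-seq libraries, and 69.5% ± 2.71 (SD, n = 8) and 69.99% ± 2.46 (SD, n = 8) in PANDORA-seq. The cluster then took 7.72% ± 1.21 (SD, n = 14) of hairpin reads in traditional-seq and 14.7% ± 4.399 (SD, n = 16) in PANDORA-seq, and without Mir127 3.90% ± 0.555 (SD, n = 14) and 4.396% ± 1.24 (SD, n = 16).

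Along the chromosome the reads were unevenly divided. The 7 members within Rtl1, all but the scarcely read Mir3071 on the strand opposite it, supplied 46.5% of cluster reads in WT and 45.3% in AD traditional-seq libraries on average, and 75.4% and 76.6% in PANDORA-seq. The interval between Rian and Mirg holds 30 members, of which 27 had reads, and it supplied 26.03% and 27.0% in traditional-seq against 4.84% and 4.64% in PANDORA-seq. The remaining members lie in Meg3 (2), between Meg3 and Rtl1 (8), in Rian (4) and in Mirg (15). Of the 66, 42 were read in every library and 20 in some. No read was found in any of the 30 libraries for Gm25750, Gm25252, Gm44322 and Gm24321, which allows a pooled level of up to 0.0276 CPM, from 3 reads and for counting error only. On average over traditional-seq, 11 members lay above 1000 CPM and 16 below 1 CPM, and over PANDORA-seq 13 and 12.

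**Figure D1:**
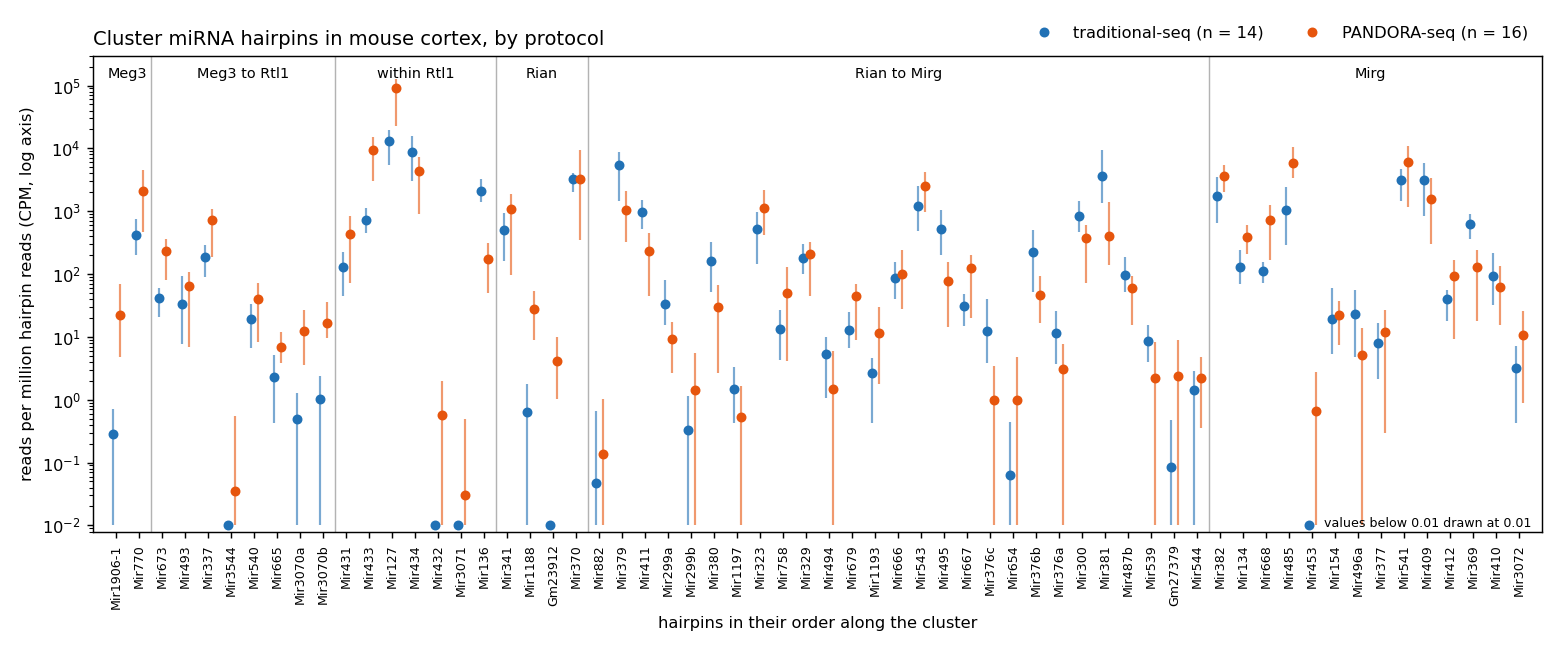
Level of each of the 62 members with reads, in their order along chromosome 12 and grouped by region, in traditional-seq (14 libraries) and PANDORA-seq (16 libraries), in CPM on a log axis, with a point at the mean and a line from the lowest to the highest library. Mir127 stood highest in both protocols, at 13012 and 91067 CPM, and Mir136, also within Rtl1, had 2129 and 173 CPM with no overlap of the lines.

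Mir127 was the most abundant member. It ranged from 5362 to 19662 CPM with a median of 13526 in WT and from 10922 to 15728 CPM with a median of 12312 in AD traditional-seq libraries, with means of 12984 ± 4363 CPM (SD, n = 7) and 13040.2 ± 1732 CPM (SD, n = 7). In PANDORA-seq it ranged from 68855 to 128383 CPM with a median of 92532 in WT and from 22947 to 127954 CPM with a median of 94568 in AD. Without AD PANDORA-seq replicate 1 the lowest AD library had 47226 CPM. The genotypes overlapped in both protocols, and each PANDORA-seq library lay above each traditional-seq library. With 1 mismatch allowed, Mir127 ranged from 19718 to 55843 CPM in traditional-seq and from 29514 to 149748 CPM in PANDORA-seq, and the protocols overlapped. Mir434, also opposite Rtl1 at chr12:109594506-109594599, plus strand, came next in traditional-seq with 9562 ± 4158 CPM (SD, n = 7) in WT and 7652 ± 3174 CPM (SD, n = 7) in AD, over 3711 to 16000.5 and 2973 to 10776 CPM. It was lower in PANDORA-seq, at 4592 ± 1418 CPM (SD, n = 8) and 4279.6 ± 2008 CPM (SD, n = 8), and the protocols overlapped. The third member in this order was Mir379, the first hairpin of the large downstream group, at chr12:109709060-109709125, plus strand. It ranged over 2111 to 8752 CPM in WT and 1464 to 7973 CPM in AD traditional-seq libraries, with means of 5319 ± 2325 and 5705 ± 2333 CPM (SD, n = 7). Its PANDORA-seq means were 1152 ± 523 CPM (SD, n = 8) and 907 ± 539 CPM (SD, n = 8).

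The members that followed differed from their neighbours in this order by less than their spread. Mir381 had 3636 ± 2287 CPM (SD, n = 14) over the 14 traditional-seq libraries, Mir370 had 3244 ± 575 CPM (SD, n = 14), Mir541 had 3179 ± 909 CPM (SD, n = 14), Mir409 had 3088 ± 1576 CPM (SD, n = 14) and Mir136 had 2129 ± 603 CPM (SD, n = 14). Mir370 is the most abundant member in Rian. The 12 most abundant members, to which Mir382 (1738 ± 826 CPM (SD, n = 14)), Mir543 (1216 ± 491 CPM (SD, n = 14)), Mir485 (1059.8 ± 568.5 CPM (SD, n = 14)) and Mir411 (987 ± 357 CPM (SD, n = 14)) also belong, held 89.0% of the summed member CPM in traditional-seq. Mir134, the member known for its action on dendritic spines, was of middle rank, with 135 ± 53.0 CPM (SD, n = 7) in WT and 127.2 ± 44.7 CPM (SD, n = 7) in AD traditional-seq libraries and 388 ± 93.2 CPM (SD, n = 8) and 388 ± 121.1 CPM (SD, n = 8) in PANDORA-seq.

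No member differed between AD and WT mice by the test in either protocol. In traditional-seq 47 members could be tested among 613 hairpins, and in PANDORA-seq 46 among 823. With edgeR's quasi-likelihood test and Benjamini-Hochberg adjustment no hairpin passed an adjusted p of 0.05 in either protocol (0% of those tested). At an unadjusted p under 0.05 the counts were 8 of all hairpins in traditional-seq and 196 in PANDORA-seq, and 0 members in both. The likelihood ratio test and DESeq2 also called 0 members and found 0 with an unadjusted p under 0.05. The median log2 fold change of the members (AD against WT) was -0.05 in traditional-seq, where that of all tested hairpins was 0.01, and 0.04 in PANDORA-seq, where it was 0.07. The sign of the members' median turned with single libraries, from -0.19 (without AD replicate 2) to 0.04 (without AD replicate 5) in traditional-seq and from -0.11 (without AD replicate 4) to 0.11 (without WT replicate 6) in PANDORA-seq.

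The member with the smallest p in traditional-seq was Mir370, from 2959 to 4117 CPM with a median of 3388 in WT and from 1996 to 3758 CPM with a median of 3127 in AD. Its log2 fold change was -0.29 (SE 0.24, edgeR adjusted p = 0.999), and the groups overlapped. In PANDORA-seq it was Mir382, from 2977 to 4007 CPM with a median of 3337 in WT and from 1998 to 5528 CPM with a median of 4092 in AD. The log2 fold change there was 0.42 (SE 0.26, edgeR adjusted p = 0.422), again with overlapping groups. For the abundant members the errors show how large a difference could have been missed. Mir127 had a log2 fold change of 0.08 (SE 0.21) in traditional-seq and 0.10 (SE 0.29) in PANDORA-seq, Mir434 had -0.33 (SE 0.37) and 0.09 (SE 0.28), and Mir379 had 0.12 (SE 0.30) and -0.17 (SE 0.32). In PANDORA-seq the sign turned with the scaling for Mir127, at -0.10 (SE 0.28) on the share scale, without TMM factors, and for Mir434, at -0.10 (SE 0.33), so neither has a direction here. The genotype effect was also compared between the protocols through an interaction term, for 52 members among 1008 hairpins. Again no hairpin was called (0%), with 94 hairpins and 0 members at an unadjusted p under 0.05.

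**Figure D2:**
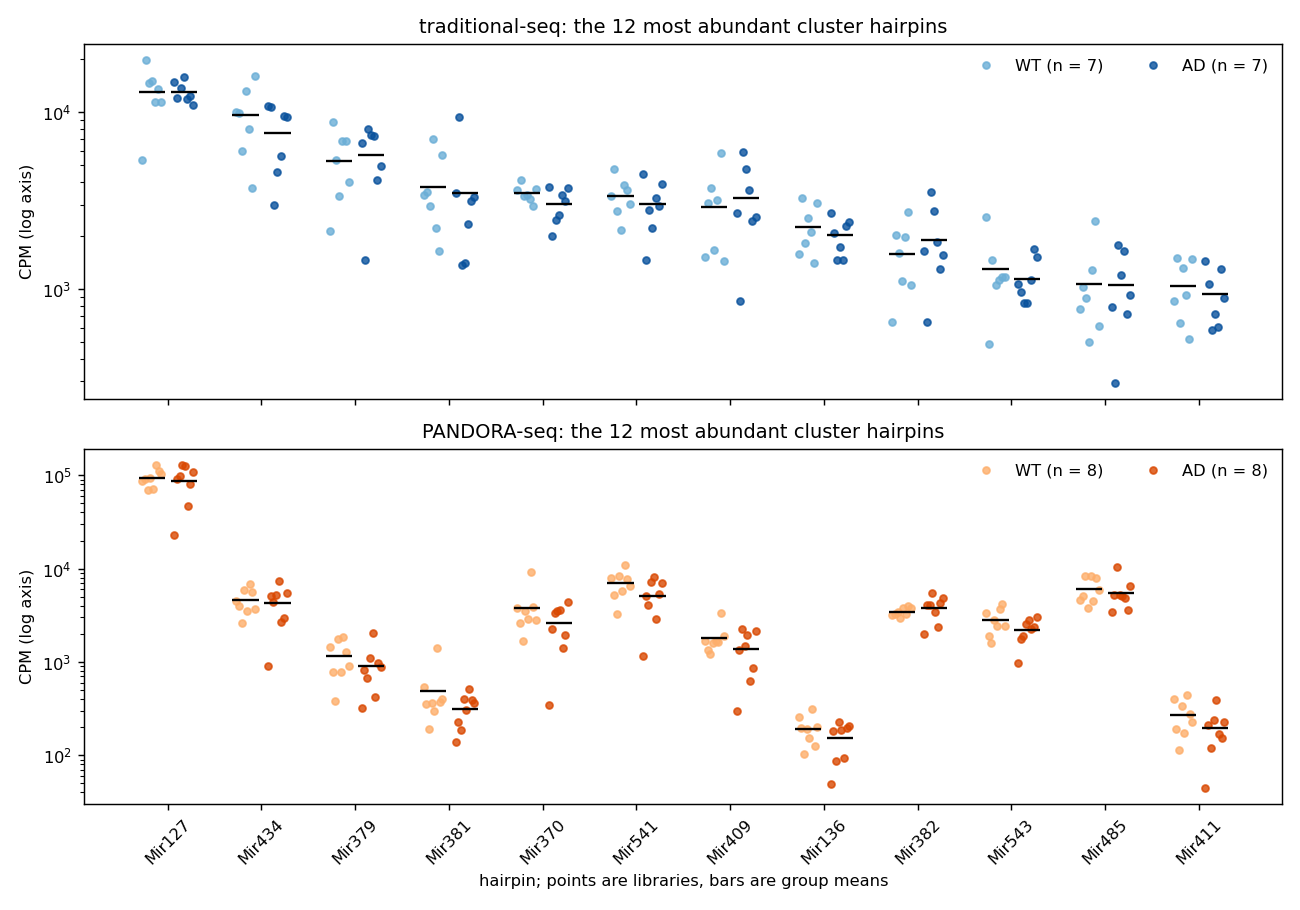
Level of the 12 most abundant members in each library of WT and AD mice, in CPM on a log axis, with a panel for each protocol, a point for each library and a bar at the group mean. In each member and protocol the WT and AD points overlap.

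The protocols differed far more than the genotypes, and the direction for many members depended on the scale. As a share of hairpin reads, which is the CPM scale, every PANDORA-seq library lay above every traditional-seq library for 10 of the 62 members with reads. The same held for 27.8% of the 1967 hairpins with reads in all. The 10 members were Mir1906-1, Mir673, Mir3070a, Mir3070b, Mir433, Mir127, Mir1188, Gm23912, Mir668 and Mir485. Every traditional-seq library lay above every PANDORA-seq library for 5 members, Mir136, Mir411, Mir495, Mir376c and Mir369, against 2.34% of all hairpins. The remaining 47 overlapped. With 1 mismatch allowed, Mir127 left the first group and the other 9 and the 5 remained, against 29% and 2.55% of 2075 hairpins.

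Most of the 923 hairpins tested rose in share as well. The picture changed with TMM factors, which scale libraries by a trimmed mean of the ratios between them. On the share scale (edgeR without TMM factors) 25 members were higher and 15 lower in PANDORA-seq of 51 tested (adjusted p under 0.05, more than 2-fold), where 74.9% of all 923 hairpins were higher and 11.1% lower. The median log2 difference was 0.95 for the members and 4.09 for all hairpins tested. With TMM factors 4 members were higher and 39 lower, where 50.9% of all hairpins were higher and 31.7% lower. The medians were -2.04 for the members and 1.09 for all, so these factors did not centre the median hairpin. Relative to all reads of a library, 2 of 53 members were higher and 48 lower, with 32.3% of all 911 hairpins higher and 48.2% lower and medians of -2.97 and -0.76. When reads that matched several hairpins were left out, TMM factors gave 13 members higher and 20 lower of 51, with 47.8% and 26.6% of 473 hairpins and medians of -0.03 and 0.79. With 1 mismatch allowed, 24 members were higher and 15 lower of 52 on the share scale, with 74.8% and 12.8% of 1033 hairpins and medians of 0.92 and 4.28, and with TMM factors 4 were higher and 42 lower, with 52.3% and 32.1% and medians of -2.12 and 1.23. Of the 51 members tested, Mir1188, Mir1906-1, Mir3070a and Mir3070b passed the count filter within PANDORA-seq alone, and Mir376a, Mir376c, Mir494, Mir496a and Mir539 within traditional-seq alone, so the filter favoured a difference in those directions for these 9. Among all hairpins 823 passed the filter within PANDORA-seq and 613 within traditional-seq, so the filter also favoured higher values in the set beside the members. As a description, the members' median lay below that of all hairpins tested under each of these 6 ways of counting. Scaling the same reads in another way moves the members and the other hairpins together, so such ways do not test this order separately. The medians lay closest, at -0.03 and 0.79, where reads that matched several hairpins were left out. With the shared file code as a block and TMM factors, 7 members were higher and 33 lower of 56, with 51.6% and 27.9% of 1215 hairpins. With the replicate number as a block they were 6 and 36 of 56, with 52.2% and 28.3% of 1220 hairpins. A looser count filter gave 9 and 34 of 59, with 48.8% and 25.7% of 1577 hairpins. Leaving out sequences found in other GENCODE transcripts gave 12 and 20 of 51, with 47.3% and 29.1% of 543 hairpins. Depth also differed between the protocols and cannot be told apart from the enzyme treatment.

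The member with the largest level by far was also higher as a share. Mir127 had 13012 ± 3189 CPM (SD, n = 14) in traditional-seq and 91067 ± 28859 CPM (SD, n = 16) in PANDORA-seq, a log2 difference of 2.81 on the share scale (SE 0.21, edgeR adjusted p = 6.08e-15) and of -0.15 (SE 0.19) with TMM factors. With 1 mismatch allowed, the levels of Mir127 were 38225 ± 11828 CPM (SD, n = 14) and 103170 ± 32274 CPM (SD, n = 16), and its log2 difference was 1.43 on the share scale (SE 0.20, edgeR adjusted p = 2.36e-08) and -1.61 with TMM factors (edgeR adjusted p = 2.52e-09), so that its direction turned with the scale. Its neighbour Mir433, chr12:109591715-109591838, plus strand, which was chosen after its values were seen, ranged from 446 to 1139 CPM with a median of 714 in traditional-seq and from 3022 to 15284 CPM with a median of 8397 in PANDORA-seq. It had a log2 difference of 3.69 on the share scale (SE 0.22, edgeR adjusted p = 3.30e-17) and of 0.74 (SE 0.20) with TMM factors. Mir485, in Mirg, rose from 1059.8 ± 568.5 to 5794 ± 1964 CPM (SD, n = 14 and 16), a log2 difference of 2.45 on the share scale (edgeR adjusted p = 2.21e-11). On the chromosome Mir433 and Mir127 lie before Mir379 and Mir485 lies after it. Relative to all reads of a library Mir127 was lower (log2 difference -1.10) and so was Mir485 (-1.46).

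Mir136 fell furthest among the abundant members. It ranged from 1395 to 3279 CPM with a median of 2084 in traditional-seq and from 49.7 to 314 CPM with a median of 189.8 in PANDORA-seq, with no overlap. The log2 difference was -3.63 on the share scale (SE 0.23, edgeR adjusted p = 1.83e-16) and -6.60 (SE 0.27) with TMM factors. Like Mir127, it lies opposite Rtl1. Mir381 had 3636 ± 2287 and 406 ± 294 CPM (SD, n = 14 and 16) and a log2 difference of -3.20 on the share scale. Mir495 had 518 ± 284 and 76.8 ± 46.7 CPM and a log2 difference of -2.77, and the weakly read Mir376c, which passed the filter through traditional-seq alone, had 12.5 ± 9.48 and 0.99 ± 1.01 CPM and -3.49. Mir379 had a log2 difference of -2.43 and Mir411, which lies beside it, -2.10. Apart from Mir376c, whose values are a description, all of these fell on both scales by the edgeR test. Mir409 (-0.98, adjusted p = 0.00119) and Mir434 (-0.95, adjusted p = 4.39e-04) were lower by less than 2-fold on the share scale. Mir370 was level in share, with 3244 ± 575 CPM (SD, n = 14) and 3212 ± 1939.8 CPM (SD, n = 16) and a log2 difference of -0.04 (SE 0.24), while Mir382 (1.07), Mir543 (1.03) and Mir541 (0.91) were higher in share. With TMM factors these last 3 had log2 differences of -1.81, -2.05 and -2.04, so their direction turned with the scale.

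The 4 members that were higher by more than 2-fold also with TMM factors were all rare in traditional-seq, and they are the 4 that passed the count filter through PANDORA-seq alone, so their values are given as a description. Mir433, described above, was higher by less than 2-fold on that scale. Mir1188 ranged over 0 to 1.80 CPM in traditional-seq and 8.79 to 53.5 CPM in PANDORA-seq, with a log2 difference of 2.52 with TMM factors (SE 0.39). Of its PANDORA-seq reads 92% were 19 to 25 nt long, the length of a mature microRNA. Mir1906-1 ranged over 0 to 0.705 and 4.82 to 69.5 CPM (log2 difference 3.13, SE 0.46), but 31% of its PANDORA-seq reads were of that length and 0% matched that hairpin alone. Mir3070a (0 to 1.29 and 3.62 to 26.4 CPM, log2 difference 1.73) and Mir3070b (0 to 2.42 and 9.55 to 35.5 CPM, log2 difference 1.19) share sequence, and 8% of the Mir3070a reads in PANDORA-seq were of microRNA length. Gm23912 had no read in traditional-seq, which allows up to 0.0422 CPM pooled over those libraries from 3 reads, and 1.04 to 9.82 CPM in PANDORA-seq.

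Pooled over the members, most reads had the length of mature microRNAs in both protocols. Reads of 19 to 25 nt made up 97.8% ± 0.55 (SD, n = 14) of cluster reads in traditional-seq and 95.3% ± 0.674 (SD, n = 16) in PANDORA-seq. For the hairpins outside the cluster the shares were 99.2% ± 0.157 (SD, n = 14) and 82.8% ± 2.67 (SD, n = 16). The lowest PANDORA-seq library had 93.7% for the cluster, and the highest had 87.0% for the other hairpins, so the cluster lay above the other hairpins in each PANDORA-seq library. In traditional-seq the order was the reverse, with at most 98.89% for the cluster and at least 98.93% for the other hairpins.

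Base composition of the mature strand moved with the protocol difference. Over the 68 member arms with a mean of at least 5 CPM, the log2 ratio of mean CPM (PANDORA-seq over traditional-seq, 1 CPM added to each) had a Pearson r of 0.68 and a Spearman rho of 0.68 with GC content, across arms that share libraries and, in pairs, hairpins. The 37 arms with a GC content of 50% or more had a median log2 ratio of 1.72, and 30 of them were higher in PANDORA-seq. The 31 arms below 50% had a median of -1.64, and 22 of them were lower. The limit of 5 CPM applied to the mean of both protocols, so some arms passed it through 1 protocol alone. For these it favoured a difference in that direction. Among them were miR-1188-5p (0.508 CPM in traditional-seq and 26.1 CPM in PANDORA-seq), with 61.9% GC, and miR-376b-3p (17.7 and 1.51 CPM), with 38.1%. In the sequences above, miR-127-3p holds 59.1% GC and miR-433-3p 54.5%, while miR-136-5p holds 36.4%. The rule had exceptions, since miR-370-3p holds 68.2% and kept its share. For 373 arms outside the cluster r was 0.46 and rho 0.44, and the medians were 2.04 and -0.28. When both arms of the same hairpin were compared, in 21 members, the arm with more GC had the higher ratio in 8, and in 1 the GC content was equal. Across these pairs the differences in GC content and in log2 ratio had a Pearson r of 0.40 and a Spearman rho of 0.29. The part of GC content in the protocol difference was not tested.

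**Figure D3:**
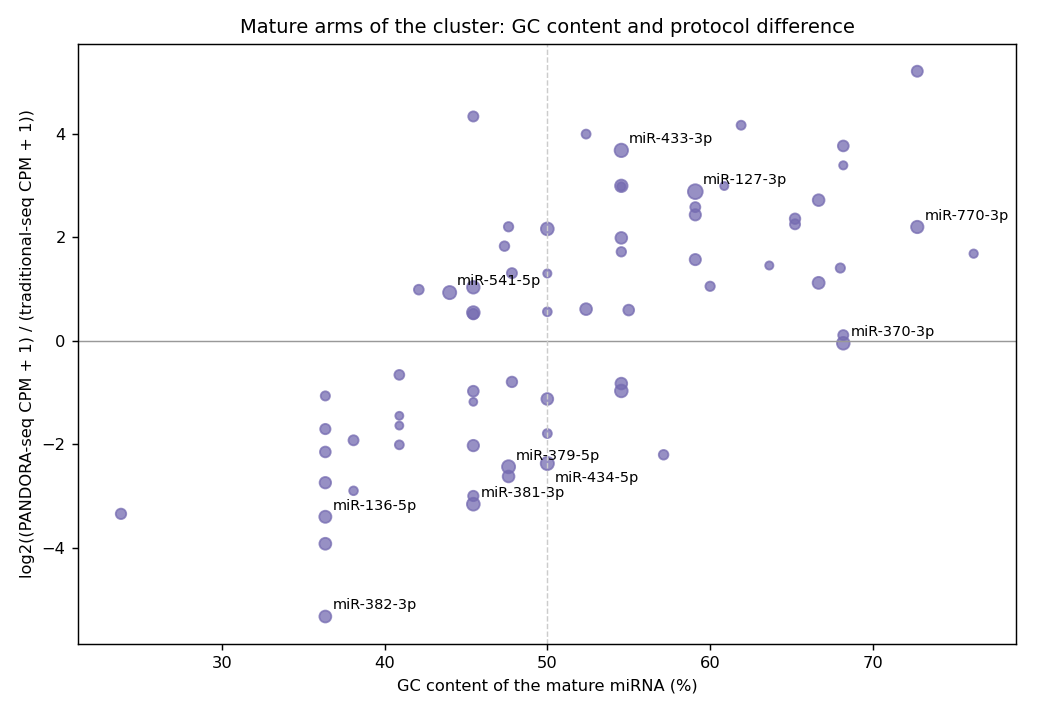
GC content of the mature strand in percent against the log2 ratio of mean CPM, PANDORA-seq over traditional-seq with 1 CPM added to each, for the 68 member arms of at least 5 CPM, with larger points for higher levels. Member arms of 50% GC or more (dashed line) had a median of 1.72 and those below had a median of -1.64.

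Which arm of a hairpin was read also differed between the protocols for many members. Of 34 members with at least 1000 arm reads in both protocols, 19 gave mainly the 3p arm in traditional-seq and 15 the 5p arm, against 18 and 16 in PANDORA-seq. By pooled reads the major arm differed in 3 of them, Mir382, Mir410 and Mir434, though for Mir382 and Mir434 not in every library. Exact matching also affects these shares, as described below with the 3′ ends. The 3p arm of Mir382 supplied 24.3% to 66.4% with a median of 51.5% of its reads in traditional-seq and 0.0886% to 1.28% with a median of 0.48% in PANDORA-seq, without overlap. The means were 51.7% ± 10.6 (SD, n = 14) and 0.599% ± 0.36 (SD, n = 16). As shown above, miR-382-3p ends in a run of U and holds 36.4% GC, against 50.0% in miR-382-5p. Mir434 went the other way, with a 3p share of 29.2% ± 10.9 (SD, n = 14) in traditional-seq, from 15.5% to 51.0% with a median of 27.0%, and 73.6% ± 10.5 (SD, n = 16) in PANDORA-seq, from 42.6% to 85.2% with a median of 74.9%, though miR-434-3p holds less GC than miR-434-5p. Mir410 had 86.9% ± 10.3 (SD, n = 14) and 33.9% ± 8.53 (SD, n = 16), also without overlap.

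By limma on the log2 ratio of 3p to 5p reads, 6 of 39 members tested were higher in PANDORA-seq and 17 lower at an adjusted p under 0.05 and a difference over 1, where 41.2% of all 595 hairpins were higher and 36.5% lower. In simulated data this fit made too many calls when the protocols differed in depth, so it was repeated, after the data had been seen, with a pseudocount scaled to each library's arm reads and at least 50 arm reads in each protocol. That gave 6 higher and 14 lower of 37, with 35.3% and 25.3% of all 340 hairpins. A mean of at least 500 arm reads left 25 members, 4 higher and 11 lower, with 45.1% and 29.7% of 266 hairpins. With the replicate number as a block 6 were higher and 18 lower of 39, with 41.6% and 40.7% of 592 hairpins. The largest rises were Mir431 (log2 difference 4.88), Mir127 (3.73) and Mir434 (2.90). In Mir431 the 3p share went from 59.0% ± 13.7 (SD, n = 14) to 97.7% ± 0.968 (SD, n = 16), and in Mir127 from 94.4% ± 0.929 (SD, n = 14) to 99.5% ± 0.102 (SD, n = 16). With 1 mismatch allowed the Mir127 share went from 98.2% ± 0.65 (SD, n = 14) to 99.6% ± 0.0941 (SD, n = 16), a log2 difference of 2.23. The largest falls were Mir382 (-7.74), Mir487b (-6.74) and Mir541 (-4.66). In Mir487b the 3p share went from 99.3% ± 0.502 (SD, n = 14) to 57.9% ± 11.2 (SD, n = 16). In Mir541 the 3p arm was a trace in both, 0.191% ± 0.149 (SD, n = 14) and 0.00233% ± 0.0048 (SD, n = 16), so its log2 value rests on few reads.

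No member was called for a difference in arm use between genotypes. In traditional-seq 41 members were tested among 384 hairpins, of which limma called 1 (0.26%), which was no member. One member, Mir668, had an unadjusted p under 0.05 (log2 difference 1.51, adjusted p = 0.987). In PANDORA-seq 38 members were tested among 599 hairpins and limma called none (0%). There Mir434 had a log2 difference of 0.75 with an unadjusted p of 0.0399 and an adjusted p of 0.503, and its 3p share was 68.4% ± 12.2 (SD, n = 8) in WT and 78.8% ± 4.91 (SD, n = 8) in AD, with overlapping libraries.

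The 5′ ends were sharp for most arms in both protocols. Over 49 arms in traditional-seq the median share of reads that began exactly at the RefSeq start was 96.2%, and 31 arms exceeded 90%. Over 46 arms in PANDORA-seq the median was 94.7%, with 29 arms above 90%. Another start was the most frequent in 10 arms in traditional-seq and in 8 in PANDORA-seq. The most frequent start of miR-136-5p lay 3 bases before the RefSeq start in both protocols, that of miR-485-3p 3 bases after it, and that of miR-382-3p 2 bases before it. A shifted start changes the seed, so the seed capitals above do not describe the most frequent form of these 3 strands. For miR-411-5p, the most frequent start was 1 base early in traditional-seq and the RefSeq start in PANDORA-seq.

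The 3′ ends showed a protocol difference in nearly all member arms. When 1 mismatch was allowed, the last base of a read differed from the hairpin in a median of 20.3% of reads over 55 member arms in traditional-seq and 1.37% in PANDORA-seq, and 54 and 6 arms exceeded 10%. Pooled over the hairpins outside the cluster the shares were 18.2% and 3.87%. In traditional-seq miR-127-3p stood highest of the 55. Its mismatched share was 76.2% ± 8.15 (SD, n = 7) in WT and 74.7% ± 7.50 (SD, n = 7) in AD traditional-seq libraries, and 23.4% ± 2.89 (SD, n = 8) and 21.8% ± 4.99 (SD, n = 8) in PANDORA-seq. The range was 64.5% to 85.4% with a median of 74.0% in traditional-seq and 16.8% to 31.3% with a median of 22.4% in PANDORA-seq, so the genotypes overlapped and the protocols did not. In traditional-seq the mismatched base of miR-127-3p was mostly U, in 59.4% of its reads, with C in 9.28% and A in 8.03%. In PANDORA-seq it was A in 10.9% and U in 10.4%. Other arms were lower in PANDORA-seq as well: miR-434-3p had 29.7% ± 10.6 (SD, n = 14) and 0.599% ± 0.224 (SD, n = 16), miR-382-5p had 31.9% ± 8.06 (SD, n = 14) and 0.381% ± 0.137 (SD, n = 16), and miR-379-5p had 19.6% ± 5.17 (SD, n = 14) and 1.26% ± 0.579 (SD, n = 16). Exact counting leaves these reads out, and also reads with a mismatch elsewhere. Allowing 1 mismatch multiplied cluster reads 2.09-fold in WT and 2.11-fold in AD traditional-seq libraries, but 1.26-fold and 1.28-fold in PANDORA-seq.

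**Figure D4:**
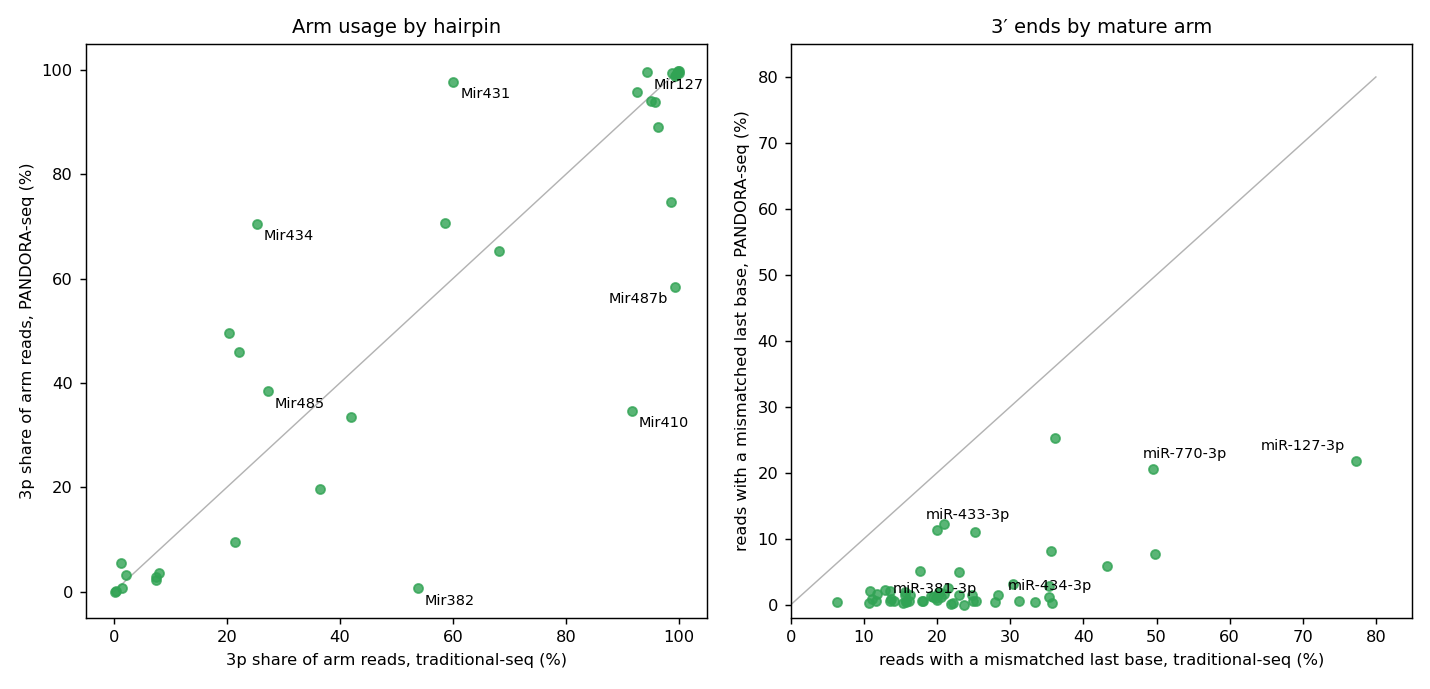
Traditional-seq (x axes) against PANDORA-seq (y axes), in percent, for the share of arm reads from the 3p arm of 34 members (left) and for the share of reads whose last base differs from the hairpin in 55 member arms (right), with reads pooled over the libraries of a protocol and a line where both are equal. Mir382 lies far below the line at 53.8% and 0.625%, Mir434 lies above it at 25.3% and 70.5%, and on the right miR-127-3p stands highest in traditional-seq at 77.2%.

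Away from the ends of the reads, a few hairpin positions were read as another base in part of the covering reads. These sites were searched for after the data had been seen, as positions with at least 1000 covering reads in traditional-seq and at least 1% changed. The members held 14 such sites over 1089 covered positions, 10 of them A-to-G in 8 members, against 20 A-to-G sites over 4905 positions in other hairpins (0.918% and 0.408% of positions). An inosine made from A by adenosine deamination is read as G. Whether these bases differed in the RNA or in the genome of these mice was not tested. Reads with more than 1 mismatch were not counted. A read changed at a site was thus lost where its last base was also mismatched, while an unchanged read with such an end was kept. This lowers the shares, and for nearly all member arms more so in traditional-seq, where such ends were more frequent. By the RefSeq mature sequences, 9 of the 10 sites lay in a seed, as did 9 of the 20 in other hairpins. The remaining member site, in Mir376c, lay outside those sequences, so whether it lies in a seed was not assessed. Positions below are counted from 1 at the 5′ end of the mature strand.

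The highest share was A6G in miR-376b-3p (chr12, position 109723513), with 65.5% ± 6.84 (SD, n = 7) in WT and 66.6% ± 5.59 (SD, n = 7) in AD traditional-seq libraries, so that the changed form outnumbered the genomic one. PANDORA-seq had 179 reads of it in all, of which 65.9% were changed. A5G in miR-411-5p (position 109710194) followed with 55.7% ± 6.90 (SD, n = 7) and 55.6% ± 7.15 (SD, n = 7) in traditional-seq and 41.9% ± 8.21 (SD, n = 8) and 47.6% ± 9.10 (SD, n = 8) in PANDORA-seq. In that strand the ranges of the protocols, 40.6% to 62.5% and 29.3% to 61.2%, overlapped. Exact counting leaves out reads changed at such sites, so the levels of Mir411 above omit many reads of this strand. With 1 mismatch allowed, the log2 difference of Mir411 between the protocols was -2.58 on the share scale. A4G in miR-376a-5p (position 109723789) had 42.3% ± 8.49 (SD, n = 14) in traditional-seq, and 29.5% of 146 reads in PANDORA-seq. A5G in miR-379-5p (position 109709069) was the best covered, with at least 12380 reads in each traditional-seq library. It had 14.8% ± 2.31 (SD, n = 7) in WT, 14.7% ± 1.36 (SD, n = 7) in AD, and 16.7% ± 3.08 (SD, n = 8) and 17.8% ± 3.11 (SD, n = 8) in PANDORA-seq. This site lies inside the seed, which is thus changed in a minority of miR-379-5p strands.

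Other sites were rarer in traditional-seq. A7G in miR-376b-5p (position 109723477) had 3.01% ± 1.58 (SD, n = 14) in traditional-seq and 24.5% ± 7.38 (SD, n = 16) in PANDORA-seq, where the lowest library had 9 covering reads, and the ranges of 1.09% to 7.51% and 11.1% to 38.2% did not overlap. By genotype the PANDORA-seq means were 21.7% ± 5.21 (SD, n = 8) in WT and 27.3% ± 8.47 (SD, n = 8) in AD, with overlapping libraries (exact permutation p = 0.134, adjusted p = 0.97 over the 47 sites with at least 5 reads in each library). miR-381-3p had 2 sites. Its A7G was at 1.06% ± 0.149 (SD, n = 14) and 1.14% ± 0.64 (SD, n = 16), and its A4G at 3.65% ± 1.73 (SD, n = 14) and 0.116% ± 0.176 (SD, n = 16). With A4G, the first 20 bases of miR-381-3p are those of miR-300-3p, as the sequences above show, so these reads differ from that strand at its end alone. miR-300-3p had A7G at 2.29% ± 0.762 (SD, n = 14) and 2.73% ± 1.26 (SD, n = 16), and miR-154-5p had A2G at 4.21% ± 3.73 (SD, n = 14) and 2.71% ± 2.77 (SD, n = 16). In Mir376c position 58 of the hairpin was changed in 6.17% of reads in traditional-seq. The other 4 sites were C9T in miR-369-5p, C9T in miR-412-5p, C10T in miR-410-3p and A8C in miR-666-5p, all with means below 3% in traditional-seq.

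Genotype made no difference that could be called at these sites. Exact two-sided permutation tests over the libraries, of 3432 splits in traditional-seq and 12870 in PANDORA-seq, were made where each library had at least 20 covering reads. Of 62 sites in all hairpins in traditional-seq none was called (0%), and the 13 member sites had a smallest p of 0.0781, for C9T in miR-412-5p. In PANDORA-seq none of 36 was called (0%), and the smallest p of the 8 member sites was 0.21, for A5G in miR-411-5p. One site of all 62 in traditional-seq, none of 36 in PANDORA-seq and no member site had an unadjusted p under 0.05. Between the protocols, permutation tests with 100000 draws called 5 of 8 member sites and 61.1% of all 36 sites. The sites were selected on traditional-seq values alone, which favoured lower shares in PANDORA-seq. The loss of changed reads with a mismatched end, given above, favoured higher shares there for nearly all member arms. These calls are thus a description. A4G in miR-381-3p was lower in PANDORA-seq (permutation p = 1e-05, the smallest these permutations can give, adjusted p = 5.14e-05). A5G in miR-411-5p was lower (difference -10.9 percentage points, permutation p = 0.00116, adjusted p = 0.00261) and A5G in miR-379-5p was higher (difference 2.48 percentage points, permutation p = 0.0116, adjusted p = 0.0220). The ends of miR-379-5p were mismatched far more often in traditional-seq, so its difference cannot be told apart from this loss of reads.

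**Figure D5:**
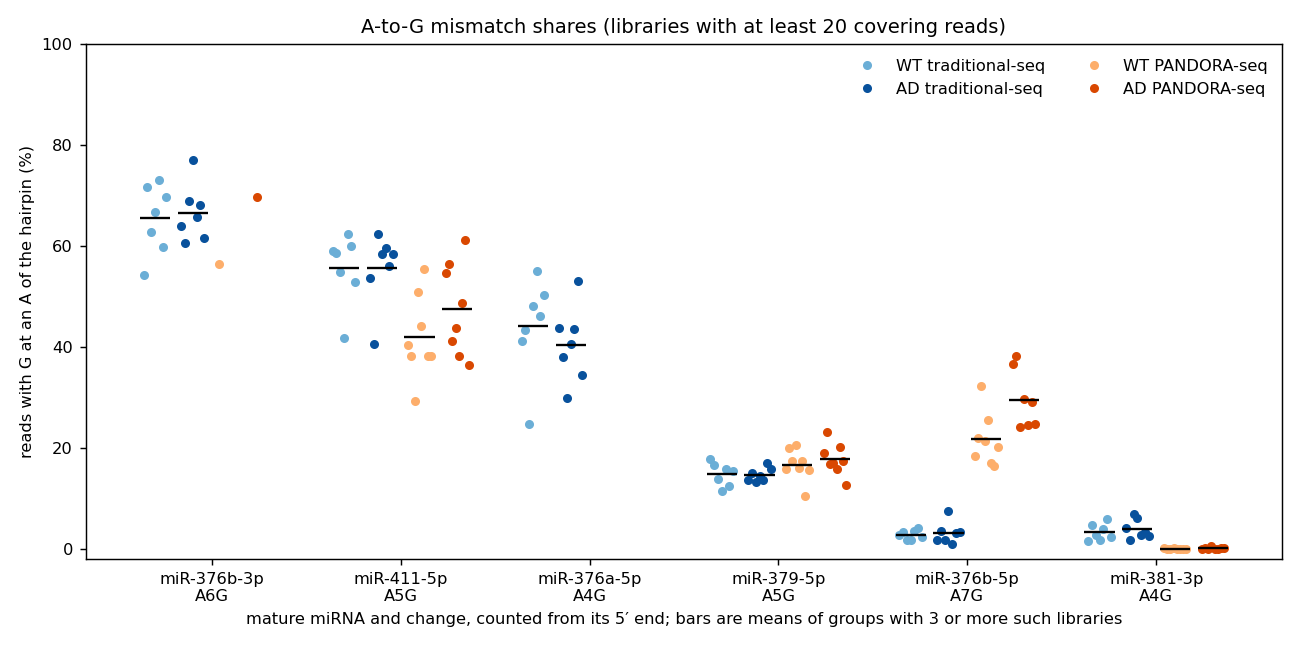
Share of covering reads with G in place of A, in percent, at 6 A-to-G sites of member strands, with a point for each library of at least 20 covering reads, by protocol and genotype, and a bar at the mean of groups with 3 or more such libraries. A5G of miR-379-5p averaged 14.8% in traditional-seq and 17.3% in PANDORA-seq, and wherever both genotypes have a bar their points overlap.

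Members varied together from library to library in PANDORA-seq more than with other hairpins, and in traditional-seq hardly more. With genotype means removed, the median Pearson r over pairs of the 34 members with a mean of at least 100 reads was 0.75 in the 16 PANDORA-seq libraries, where 98.04% of 561 pairs were above 0. The median r of a member with a hairpin outside the cluster was 0.19, and over all pairs of hairpins 0.24. All 34 members had a higher median r with other members than with other hairpins. In the 14 traditional-seq libraries the median over 595 pairs of 35 members was 0.31, against 0.27 with hairpins outside the cluster and 0.25 over all pairs. For the 20 members with a mean of at least 1000 reads it was 0.13 there, below the 0.16 with other hairpins and the 0.15 over all pairs. These points share their libraries and the hairpin total by which each is divided. Without AD PANDORA-seq replicate 1 the median r of the members was 0.53 and that with other hairpins 0.03, and without any other single PANDORA-seq library it was 0.72 to 0.78. In PANDORA-seq Mir412 (median r 0.85) and Mir667 (0.85) followed the other members most closely, and Mir485 (0.24) and Mir381 (0.38) least. Position made little difference, with 0.71 for members of the same region and 0.75 for members of different regions. Members of 50% GC or more correlated at 0.79 with each other, members below 50% at 0.80, and pairs across at 0.68. Without AD PANDORA-seq replicate 1 the members with the highest median r were Mir541 (0.72) and Mir127 (0.69), while Mir412 had 0.67 and Mir667 0.63. The lowest were then Mir485 (-0.07), Mir487b (0.14) and Mir381 (0.15), and the values by GC content were 0.59, 0.67 and 0.42.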

How the data were processed

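For each of the 30 libraries the authors deposited read counts, whole numbers of reads for each distinct cleaned sequence, with no normalization and no coordinates. The adapter trimming was done by the authors, and the labels list the build mm39. The study annotated its reads with SPORTS, which allows 1 mismatch, and tested them with edgeR.

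Here each sequence was matched over its whole length, in the sense direction and without mismatch, to the GENCODE M21 microRNA hairpins. A read that matched several hairpins was counted in each. Members and gene lists were chosen with earlier results of these data known. Read counts per hairpin were tested over all hairpins with edgeR 4.0.16 (quasi-likelihood test, TMM, filterByExpr with a minimum count of 10 and a minimum total of 15) within each protocol, and over all libraries for the protocols with genotype as covariate. Calls needed a Benjamini-Hochberg adjusted p under 0.05 and, between protocols, a fold over 2. The test without TMM factors used the hairpin reads of a library as its size. A read was put on the 5p or 3p arm by its centre, and log2((3p + 0.5)/(5p + 0.5)) was tested with limma 3.58.1 for hairpins with a mean of at least 50 arm reads. Mismatches were taken from reads of 18 nt or longer that matched with 1 mismatch and nowhere exactly, leaving out the first base and the last 3 for internal sites. DESeq2 1.42.0 served as an alternative. Co-variation used log2(CPM + 1). The fits of genotype within each protocol and of protocol, by edgeR with TMM factors and by limma on the arm ratio, were tested on simulated data. The fits on other scales, the interaction, the block fits, the likelihood ratio test, DESeq2 and the permutation tests were not.

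The members named are the 12 most abundant in traditional-seq, the 5 largest rises and falls between protocols among those called, the 3 largest rises and falls in arm ratio, any called between genotypes, and the one with the smallest p between genotypes in each protocol. Others are named where a count or sequence result turns on them. Precision follows the hairpin reads of a library, 3879671 to 7090394 in traditional-seq and 829202 to 3634848 in PANDORA-seq. Floors and read counts cover counting error only, since the reads carry no molecular identifiers.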

Additional observations from a re-analysis of the deposited data

Results flagged for a closer look

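In groups of 7 or 8 libraries, a library was marked where its gap to the nearest other library was large against the range of its group (Dixon's 95% value). Of 134 groups of values examined 19 held such a library, and chance marks about 1 in 20 groups. No explanation was weighed for any of them.

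For the cluster as a whole, AD traditional-seq replicate 1 had the highest share of hairpin reads in its group, 6.16%, and the highest share without Mir127, 4.69%. Among the abundant members, Mir379 was highest in AD PANDORA-seq replicate 5 with 2065 CPM. Mir381 was highest in AD traditional-seq replicate 2 with 9410 CPM, where the next library had 3475 CPM, and in WT PANDORA-seq replicate 6 with 1427 CPM. The same WT PANDORA-seq replicate 6 was highest for Mir370 with 9299 CPM, where the next had 3881 CPM, and for Mir431 with 838 CPM. Mir409 was highest in WT PANDORA-seq replicate 7 with 3329 CPM. Mir485 was highest in WT traditional-seq replicate 6 with 2432 CPM and in AD PANDORA-seq replicate 3 with 10340 CPM. Mir3070b was highest in WT PANDORA-seq replicate 7 with 35.5 CPM and in AD PANDORA-seq replicate 3 with 25.3 CPM.

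Among the mismatch sites, A5G in miR-411-5p was lowest in AD traditional-seq replicate 2 with 40.6% of covering reads, where the next library had 53.7%. A7G in miR-376b-5p was highest in AD traditional-seq replicate 4 with 7.51%, A7G in miR-300-3p in WT PANDORA-seq replicate 4 with 5.81%, and A4G in miR-381-3p in AD PANDORA-seq replicate 4 with 0.635%. C9T in miR-412-5p was highest in WT PANDORA-seq replicate 4 with 1.75% and in AD PANDORA-seq replicate 1 with 3.85%. C10T in miR-410-3p was highest in WT traditional-seq replicate 2 with 2.91%.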

How the results depend on the processing

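No alternative run called a member between AD and WT in either protocol or in the interaction, and none called one for arm ratio between genotypes. The counts of members called between the protocols depended on the scaling and on the reads counted. The 4 members higher became 25 without TMM factors, 24 without them and with 1 mismatch, 2 with all reads as library size, 9 with a looser filter, 13 with reads of 1 hairpin only and 12 with sequences found in other GENCODE transcripts left out, and the 39 lower became 15 without TMM factors, with or without 1 mismatch, and 20 under each of the last 2. Of all hairpins, 48.8% were higher with the looser filter, and 47.3% were higher and 29.1% lower with sequences of other transcripts left out. The log2 difference of Mir127 (-0.15 with TMM factors) turned to 2.81 without TMM factors, 1.90 with reads of 1 hairpin only, 0.64 with reads of 19 to 25 nt and 1.80 with sequences of other transcripts left out. In the same order but without the length limit, Mir382 turned to 1.07, 0.21 and 0.0821, Mir485 to 2.45, 1.54 and 1.40, and Mir431 to 1.75, 0.86 and 0.76. Mir541 turned to 0.91 and Mir543 to 1.03 without TMM factors. Without TMM factors and with 1 mismatch, Mir127 turned to 1.43, Mir382 to 1.01, Mir485 to 2.45, Mir431 to 1.75, Mir541 to 0.89 and Mir543 to 1.14, and with 1 mismatch and TMM factors Mir127 was called lower at -1.61, and Mir485, at -0.54, had an adjusted p under 0.05 but less than a 2-fold difference. The cause was not tested beyond the construction of these alternatives.

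With a mean of 500 arm reads, which left 25 members, 15 differed in arm ratio between protocols in place of 23, and 11 were lower in place of 17, where 45.1% of all hairpins were higher and 29.7% lower. The cluster share of hairpin reads (WT and AD traditional-seq, then WT and AD PANDORA-seq) became 2.31%, 2.17%, 0.367% and 0.401% of all reads, 8.17%, 7.70%, 29.2% and 26.6% with reads of 1 hairpin only, and 7.91% and 7.53% in traditional-seq with 1 mismatch. The traditional-seq median r became 0.13 at a mean count of 1000, where that with other hairpins was 0.16.

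Leaving out each library in turn gave 4 to 5 members higher and 32 to 39 lower between the protocols (37 to 44 in all), the lowest without AD PANDORA-seq replicate 6. Arm ratio gave 21 to 23 in all, 6 higher and 15 to 17 lower, and the comparisons of genotypes gave 0 members each time. Cluster shares ran from 5.19% to 5.72% in WT and 5.02% to 5.24% in AD traditional-seq and from 13.7% to 14.9% in WT and 12.4% to 14.5% in AD PANDORA-seq, and the median r from 0.21 to 0.36 and from 0.53 to 0.78. Of 1989 alternatives over 61 named results, 1954 were counted as the same, 21 reversed, 8 lost and 6 gained a call. The same means called in the same direction in both runs, or called in neither run, whatever the sign.

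Replicate numbers were not taken to pair the libraries, since the labels give them no meaning and not every pair was correlated. The correlations of same-numbered libraries ran from -0.33 to 0.45 between genotypes in traditional-seq, from -0.48 to 0.52 in PANDORA-seq, and between protocols from -0.18 to 0.42 in WT and from -0.28 to 0.17 in AD. With a replicate block 0 members were called between genotypes in both protocols, 42 between protocols (6 higher and 36 lower, against 52.2% and 28.3% of all hairpins) and 24 in arm ratio (6 higher and 18 lower, against 41.6% and 40.7%). With the code shared by 14 pairs of files as a block, which in WT is the same pairing as the replicate number, there were 40 (7 higher and 33 lower, against 51.6% and 27.9%).

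Sequences occurring once in the genome were not selected, because no genome sequence was used here. Leaving out sequences found in other transcripts, 1 mismatch for the share scale and the arm ratio, the scaled pseudocount of the arm ratio, the mismatch sites and the GC comparison were chosen after seeing the data. Below about 1 CPM a member rests on a few reads a library in PANDORA-seq, and a share at a site of low coverage on fewer.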

Other observations

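The same window holds 23 small nucleolar RNA transcripts, which are processed from the maternal noncoding RNAs of the domain. Reads that matched them exactly made up 168 ± 83.9 per 1000000 of all reads in WT and 156 ± 37.9 in AD traditional-seq libraries (SD, n = 7 each), and 458 ± 101 and 409 ± 231 in PANDORA-seq (SD, n = 8 each). The largest contributor in PANDORA-seq was Gm23736, at 190 ± 85.9 per 1000000 there (SD, n = 16) and 26.9 ± 15.7 in traditional-seq (SD, n = 14), over 71.2 to 384 and 4.69 to 63.3, without overlap. In 2 others, chosen after their values were seen, the PANDORA-seq means differed by genotype while the libraries overlapped: AF357341 had 44.9 ± 9.72 in WT and 20.1 ± 13.4 in AD, over 31.9 to 59.8 and 5.87 to 39.6, and AF357425 had 90.4 ± 27.8 and 46.3 ± 20.5, over 60.8 to 143 and 26.8 to 86.4 (SD, n = 8 each). In traditional-seq AF357341 had 16.1 ± 11.6 and 15.7 ± 8.81 and AF357425 had 64.8 ± 39.5 and 61.6 ± 28.01 (SD, n = 7 each). Other transcripts had higher PANDORA-seq means in AD, such as DQ267100 with 67.8 ± 37.2 in WT and 86.2 ± 62.0 in AD (SD, n = 8 each). Gm24895 had 12.7 ± 6.53 and 21.6 ± 21.7 there. These values were not tested.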
